A study of Rattus norvegicus with 96 samples.

Results

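The dorsolateral part of the bed nucleus of the stria terminalis (dlBNST) was compared between alcohol-drinking rats with and without induced dependence on 8 of the 96 arrays of the series: the 4 arrays that the labels name as dependent dlBNST and the 4 that they name as non-dependent dlBNST. The study covered 8 brain regions and 3 groups of adult male Wistar rats, with 4 rats in each group according to its text and 1 Affymetrix rat genome array for each rat and region. Dependent rats had drunk unsweetened 10% alcohol by lever pressing for 4 weeks, were then exposed to intermittent ethanol vapor for 4 weeks and drank again during acute withdrawal. Non-dependent rats were trained and drank in the same way and were not exposed to vapor. Alcohol naive rats of the same age, 4 arrays, shared the fit and are given here as the baseline of both drinking groups. All rats were killed 3 weeks after the end of the vapor exposure, so the arrays show protracted abstinence and not intoxication or acute withdrawal. The labels say that vapor-exposed rats also drank more than the others, so vapor and later intake cannot be told apart.

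The dlBNST belongs to the extended amygdala. It consists mainly of inhibitory GABA neurons, many of which also make peptides such as corticotropin-releasing factor (CRF, encoded by Crh), enkephalin (Penk), dynorphin (Pdyn) and neurotensin (Nts), and it projects to the hypothalamus, the ventral tegmental area (VTA) and the brain stem. CRF and dynorphin promote stress responses, neuropeptide Y (NPY) generally dampens them, and both the peptides and the glucocorticoid receptor (Nr3c1) have been studied there in relation to withdrawal and to drinking after withdrawal. The question of the comparison is what vapor exposure adds, weeks after it ended, to a history of voluntary drinking.

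No gene passed. Of 8715 genes tested with limma and Benjamini-Hochberg adjustment, 0 had an adjusted p under 0.05 (0%), and the lowest adjusted p was 0.485. At an unadjusted p under 0.05, 214 genes (2.46%) were higher and 394 (4.52%) lower in dependent rats, 608 in all (6.98%), where 5% of the genes tested would be 436. The split between higher and lower depended on the scaling of the arrays: 274 higher (3.14%) and 280 lower (3.21%) after quantile normalization, and 298 higher (3.42%) and 261 lower (2.99%) after median scaling. The median difference over all genes was -0.0275 on the log2 scale as deposited, -0.00428 after quantile normalization and 0.00676 after median scaling. Single arrays moved these counts: without dependent replicate 1 there were 361 higher and 726 lower genes, and without dependent replicate 3 there were 160 and 224, still with 0 past the adjusted threshold.

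The tissue label was checked against marker genes. All levels are log2 signals after GCRMA, a normalization that corrects the background of each probe by its sequence, and a level is compared between arrays and not between genes. Slc32a1, the vesicular GABA transporter, was at 10.81 ± 0.316 on the naive dlBNST arrays (SD, n = 4), the highest mean of the 8 regions, and Crh was at 8.24 ± 0.221, again the highest. In the central amygdala Crh was close to that, at 7.98. Nts (10.06) and Gad2 (8.35), a GABA-synthesizing enzyme, ranked 2 of 8. Dlx5 (6.58), Sst (5.72) and Cyp19a1 (4.55) also ranked 2. Other markers of BNST neurons ranked lower: Penk (12.81) and Meis2 (12.42) were 3, and Gad1 (13.85), Pdyn (9.27) and Cartpt (8.7) were 4. Npy (8.67) was 5 and Calb1 (11.47) was 7 of 8. Zic1 (2.38), Esr1 (2.7), Tac1 (3.38) and Isl1 (3.49) were near background. Slc17a7, the vesicular glutamate transporter of cortex, was at 3.31 and Th, the dopamine-synthesizing enzyme, at 3.41, close to background. Prkcd, a kinase that marks a class of GABA neurons of the oval nucleus, was only at 4.83. Ttr, the transthyretin gene of the choroid plexus, was at 8.56 ± 1.61, the highest mean of the 8 regions and uneven between arrays. Slc17a6, listed here among hypothalamic and thalamic neuron markers, was uneven too, at 5.86 ± 2.15, against 10.87 in the ventral part of the BNST. The summed level of the choroid plexus and ependyma markers ran between 9.63 and 11.35 on dependent arrays, 9.19 and 11.56 on non-dependent arrays and 8.59 and 11.04 on naive arrays. None of 17 measures of array quality and summed cell type markers passed a test between dependent and non-dependent arrays (two-sided exact permutation test, lowest p 0.114, smallest possible p 0.0286, lowest adjusted p 0.695 over the 17). Every dlBNST array correlated with at least 1 other at r of 0.9936 or higher.

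The genes with the lowest p in each direction, 12 higher and 12 lower, are described next as the leading differences. They were chosen by that p, so their values are a description. For 10 of the 12 higher and 10 of the 12 lower genes the 4 dependent arrays lay wholly outside the 4 non-dependent arrays, which held for 86 (0.987%) and 138 (1.58%) of all genes tested. Smc4 and Scaf8 overlapped among the higher genes, and Ppan and Pcbp3 among the lower.

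**Figure D1:**
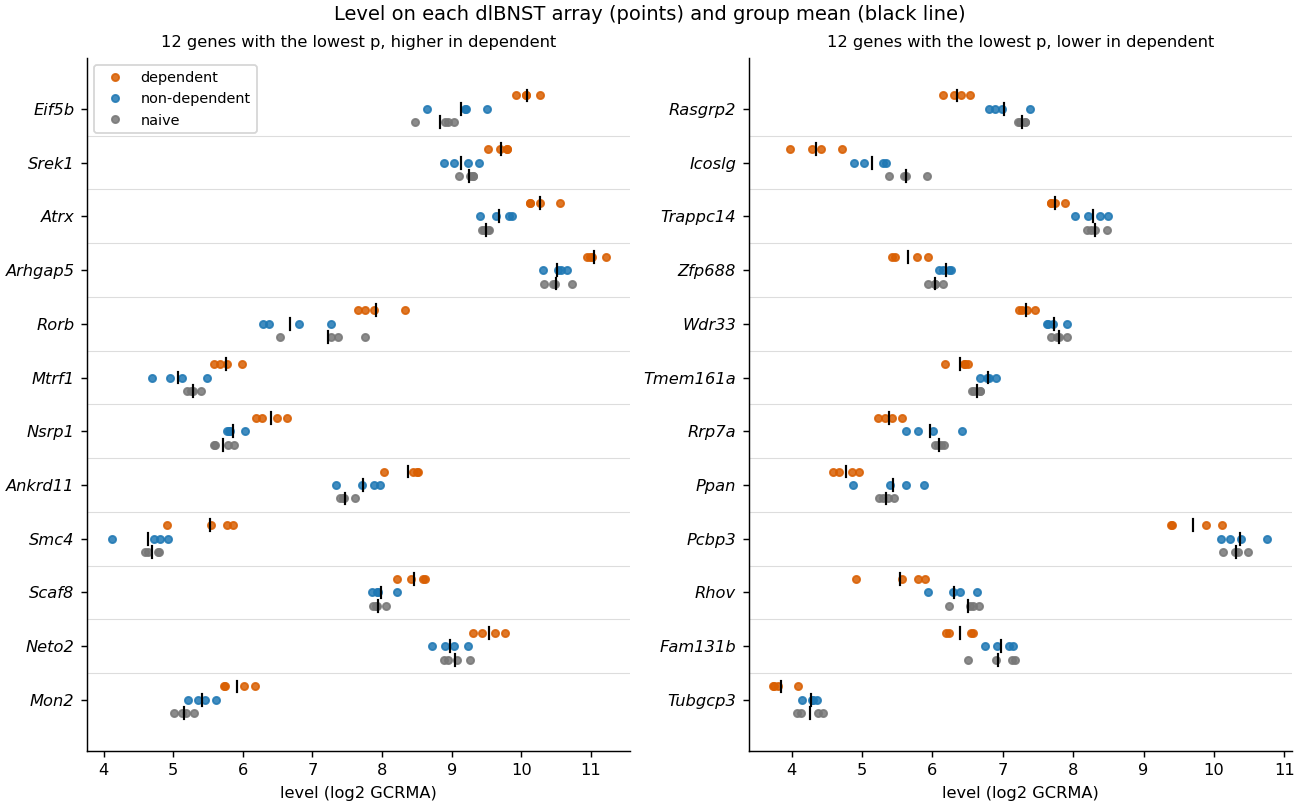
Level of the 12 genes with the lowest p in each direction on each dlBNST array (horizontal axis, log2 GCRMA; 4 points per group, black line at the group mean), dependent above non-dependent above naive. Eif5b lay between 9.92 and 10.26 on dependent arrays and between 8.64 and 9.5 on non-dependent arrays; Rasgrp2 lay between 6.15 and 6.53 on dependent arrays and between 6.81 and 7.38 on non-dependent arrays.

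Eif5b, which encodes the initiation factor that joins the ribosomal subunits at the start codon, had the lowest p of all genes. Its level was 10.06, 10.26, 10.07 and 9.92 on the dependent arrays, 9.2, 9.5, 9.19 and 8.64 on the non-dependent arrays and 8.94, 8.47, 9.03 and 8.9 on the naive arrays. All 4 dependent arrays were above every other array of the region. The difference between dependent and non-dependent rats was 0.94 ± 0.173 (log2 ± SE; 1.92-fold; limma, unadjusted p = 0.000112, adjusted p = 0.485). The probe sets of this gene disagreed: a second one, at 8.89 in dependent and 8.91 in non-dependent rats, differed by -0.02, and another, at 6.87 and 6.41, by 0.47. The value of Eif5b therefore belongs to the probe set used.

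Atrx, a chromatin remodeler of heterochromatin, was at 10.12, 10.55, 10.13 and 10.27 on dependent arrays and at 9.86, 9.41, 9.63 and 9.82 on non-dependent arrays, with no overlap, a difference of 0.59 ± 0.124 (adjusted p = 0.485). All 6 probe sets of Atrx were higher in dependent rats, by 0.45 to 1.01. Ankrd11, a chromatin regulator that binds histone deacetylases, differed by 0.64 ± 0.147 (adjusted p = 0.582), and its other 2 probe sets by 0.45 and 0.97. Dependent replicate 1, at 8.03, was nearest to the non-dependent arrays, which lay between 7.34 and 7.97, while the other dependent arrays lay between 8.44 and 8.51. Srek1 and Nsrp1, both splicing regulators, differed by 0.56 ± 0.119 and 0.54 ± 0.119 (both adjusted p = 0.485). For Nsrp1 the other probe sets gave 0.56 and 0.01, and for Srek1 the others gave 0.1 and -0.02. Scaf8, which binds the tail of RNA polymerase II, differed by 0.47 ± 0.115, and Smc4, a condensin subunit, by 0.88 ± 0.208.

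Rorb, an orphan nuclear receptor known for its role in cortical layer 4 and the retina, had the largest difference of the 24 leading genes. It was at 7.66, 7.89, 8.33 and 7.75 on dependent arrays, against 7.26, 6.8, 6.29 and 6.37 on non-dependent arrays, a difference of 1.22 ± 0.264 (2.33-fold, adjusted p = 0.485). The naive arrays, at 7.75, 6.53, 7.37 and 7.26, spanned most of the gap, so the naive mean lay between the means of the drinking groups. A second probe set of Rorb, near background at 3.69 in dependent and 3.59 in non-dependent rats, differed by 0.1. Neto2, an auxiliary subunit of kainate receptors, was at 9.3 to 9.76 on dependent arrays and 8.71 to 9.24 on non-dependent arrays (0.56 ± 0.138, adjusted p = 0.688). Arhgap5, a GTPase-activating protein, was at 10.94 to 11.21 on dependent arrays and 10.31 to 10.65 on non-dependent arrays (0.53 ± 0.113, adjusted p = 0.485). Mtrf1, a mitochondrial release factor, and Mon2, a protein of the trans-Golgi, completed the 12, with differences of 0.69 ± 0.15 and 0.51 ± 0.126.

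Rasgrp2 led the genes that were lower in dependent rats. It encodes CalDAG-GEFI, a calcium- and diacylglycerol-responsive exchange factor for Rap that is abundant in striatal projection neurons. Its level was 6.53, 6.3, 6.15 and 6.4 on dependent arrays, 6.81, 6.89, 6.99 and 7.38 on non-dependent arrays and 7.31, 7.25, 7.32 and 7.21 on naive arrays. Every dependent array was below every array of the other groups, with a difference from non-dependent rats of -0.67 ± 0.128 (0.627-fold, unadjusted p = 0.000157, adjusted p = 0.485). A second probe set of Rasgrp2, near background at 3.92 and 3.97, differed by -0.05. Of 17 markers of striatal medium spiny neurons tested, Rasgrp2 and Pde1b, a phosphodiesterase, were the only ones with an unadjusted p under 0.05 and both were lower, while the median of that list was 0.044. They were 11.8% of the list, against 6.98% of all genes tested.

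Icoslg, the ligand of the T-cell costimulator ICOS, was at 4.29, 4.72, 3.98 and 4.41 on dependent arrays and at 5.34, 5.03, 5.3 and 4.89 on non-dependent arrays (-0.79 ± 0.165, adjusted p = 0.485), and the naive arrays were higher still, between 5.38 and 5.92. Its dependent arrays were near background, and a second probe set, at 2.69 in dependent and 2.73 in non-dependent rats, differed by -0.04. Trappc14, a vesicle-tethering subunit, was at 7.68 to 7.88 on dependent arrays and 8.03 to 8.5 on non-dependent arrays (-0.53 ± 0.114). Ppan and Rrp7a, which act in ribosome biogenesis, differed by -0.68 ± 0.178 and -0.58 ± 0.15. Pcbp3, a poly(C)-binding protein, differed by -0.67 ± 0.18, and its 2 other probe sets by -0.31 and -0.17. Rhov differed by -0.77 ± 0.207. Zfp688, Fam131b, Tmem161a and Tubgcp3, the last a subunit of the gamma-tubulin complex, differed by -0.53, -0.59, -0.39 and -0.43, with Tubgcp3 near background at 3.85 in dependent and 4.28 in non-dependent rats. Wdr33, a subunit of the polyadenylation machinery, differed by -0.4 ± 0.0981, but a second probe set of similar brightness, at 7.34 in dependent and 6.99 in non-dependent rats, differed by 0.35, so its direction depended on the probe set. Of the 24 leading genes, 15 had further probe sets, 24 in all, and 20 of these differed in the same direction as the one used; among the 16 with a mean above 4 it was 14.

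**Figure D2:**
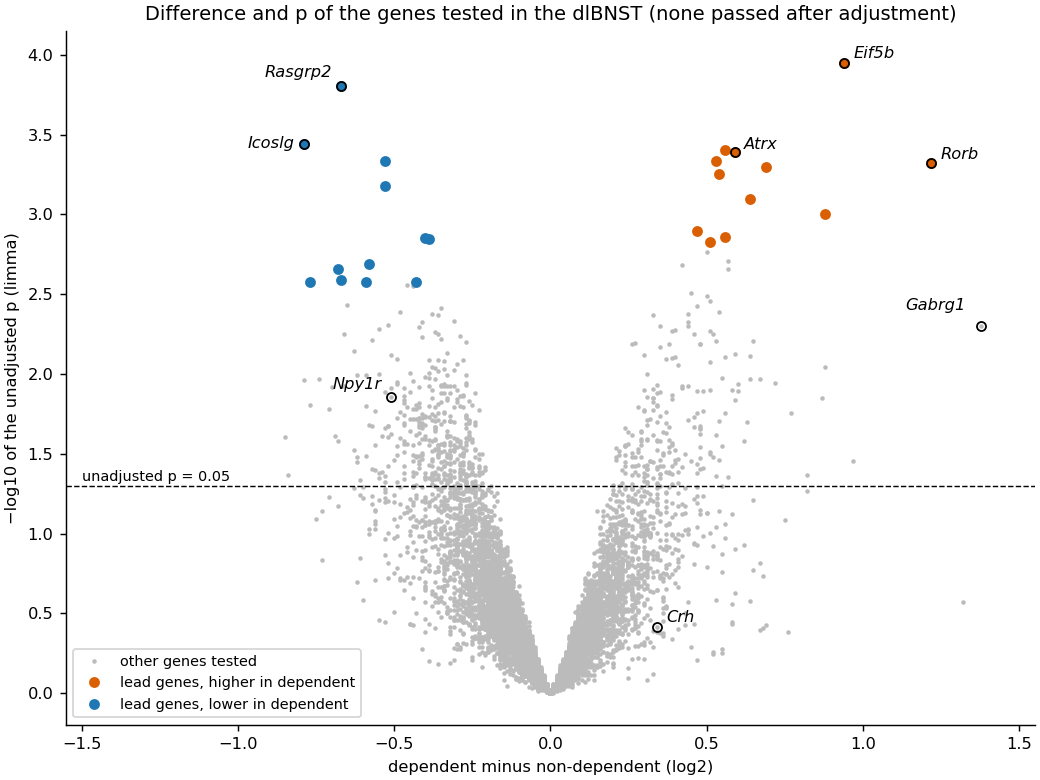
Difference between dependent and non-dependent rats (horizontal axis, log2) and −log10 of the unadjusted p (vertical axis) of the 8715 genes tested. Coloured points are the 12 leading genes in each direction, open circles mark genes named in the text, and the dashed line is an unadjusted p of 0.05. Gabrg1, at 1.38, has the largest difference, and no gene passed after adjustment.

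The naive arrays gave a further view of the leading genes, with the reservation that both contrasts below use the same dependent arrays. For 7 of the 12 higher and 6 of the 12 lower genes the naive mean lay beyond the non-dependent mean on the side away from the dependent mean, and for the other 5 and 6 it lay between the means of the drinking groups. Against naive rats, 9 genes of the whole table (0.103%) passed the adjusted threshold in dependent rats, with 1374 (15.8%) at an unadjusted p under 0.05, and 0 (0%) in non-dependent rats, where 584 genes (6.7%) had an unadjusted p under 0.05. The dependent minus naive difference was 1.24 for Eif5b (adjusted p = 0.0207), 0.78 for Atrx (adjusted p = 0.0363), 0.9 for Ankrd11 (adjusted p = 0.0407), 0.76 for Mon2 (adjusted p = 0.0407), -0.93 for Rasgrp2 and -1.28 for Icoslg (both adjusted p = 0.0207). The non-dependent minus naive difference of the same genes was 0.3, 0.19, 0.25, 0.26, -0.26 and -0.48. None of these non-dependent values passed.

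The promoters of the genes with the lowest p in each direction, and of Atrx, whose probe sets all pointed the same way, are shown to give the sequence at their start sites. They come from RefSeq on the rat assembly GRCr8 and run 5′ to 3′ from 250 bases before to 50 bases after the annotated start. Eif5b lies at chr9:47718456-47718755 on the plus strand, Atrx at chrX:75062831-75063130 on the minus strand and Rasgrp2 at chr1:213136484-213136783 on the plus strand. Capitals mark TATAAA, the letters of the TATA box, found by sequence alone and without regard to the distance from the start.
Eif5b: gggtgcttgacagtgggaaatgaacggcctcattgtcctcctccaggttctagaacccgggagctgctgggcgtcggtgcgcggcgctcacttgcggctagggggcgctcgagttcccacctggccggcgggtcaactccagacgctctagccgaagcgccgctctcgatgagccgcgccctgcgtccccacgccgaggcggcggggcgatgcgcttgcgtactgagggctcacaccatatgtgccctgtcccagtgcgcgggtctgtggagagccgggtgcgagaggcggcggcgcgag
Atrx: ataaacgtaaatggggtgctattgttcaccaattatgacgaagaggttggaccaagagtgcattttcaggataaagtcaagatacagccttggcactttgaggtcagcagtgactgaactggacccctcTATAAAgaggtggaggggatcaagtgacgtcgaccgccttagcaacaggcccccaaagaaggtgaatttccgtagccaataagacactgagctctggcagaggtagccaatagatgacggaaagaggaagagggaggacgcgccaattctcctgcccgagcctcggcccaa
Rasgrp2: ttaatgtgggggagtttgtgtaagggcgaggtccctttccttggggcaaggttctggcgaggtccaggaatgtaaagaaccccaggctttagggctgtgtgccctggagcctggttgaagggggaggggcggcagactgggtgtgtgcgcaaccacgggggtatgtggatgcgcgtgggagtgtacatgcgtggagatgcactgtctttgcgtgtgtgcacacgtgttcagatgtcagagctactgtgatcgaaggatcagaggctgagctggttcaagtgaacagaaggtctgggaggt
The promoter of Eif5b held 69.3% G and C and 35 CpG, that of Atrx 50.7% and 11, and that of Rasgrp2 57% and 11.

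Promoter entries were matched for 12 of the higher and 9 of the lower leading genes. Searched on both strands, the half-site AGAACA of the glucocorticoid response element was in 0 of the 12 and 1 of the 9, that of Wdr33, and in 11.9% of the 7316 promoters of genes tested. The cAMP response element TGACGTCA was in 0 of the 12 and 0 of the 9, and in 3.44% of promoters of genes tested. TATAAA was in that of Atrx alone, against 6.22% of promoters of genes tested. No letters of these matches were shared between motifs. The median G and C content was 67.5% for the higher genes, 59.3% for the lower genes and 61.3% for the genes tested. With so few windows these are descriptions of the sequence.

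Among the neuropeptide systems, NPY receptor Y1 (Npy1r), the main postsynaptic NPY receptor, was lower in dependent rats before adjustment. It was at 6.89, 6.36, 6.93 and 6.67 on dependent arrays, 7.33, 6.67, 7.51 and 7.4 on non-dependent arrays and 8.04, 7.87, 8.17 and 7.86 on naive arrays. Non-dependent replicate 2 lay within the dependent range and the other 3 above it, and all 8 arrays lay below every naive array. The difference between dependent and non-dependent rats was -0.51 ± 0.181 (unadjusted p = 0.014, adjusted p = 0.688). Against naive rats it was -1.27 in dependent rats (limma, adjusted p = 0.0207) and -0.76 in non-dependent rats, which did not pass (limma, adjusted p = 0.724). Npy itself (-0.19 ± 0.268) and the Y5 receptor Npy5r (-0.08 ± 0.193) overlapped widely.

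Crh varied more within the groups than between them. It was at 9.17, 8.87, 8.85 and 8.28 on dependent arrays, against 8.42, 9.52, 7.11 and 8.74 on non-dependent arrays, a difference of 0.34 ± 0.381 (unadjusted p = 0.383, adjusted p = 0.878). The non-dependent arrays held both the highest and the lowest value, and without non-dependent replicate 3 the difference was -0.1. Crhbp, the CRF-binding protein, was near background (4.18, 3.81, 4.47 and 4.27 on dependent arrays) with a difference of -0.11 ± 0.15. The CRF receptors were not analysed here. Of the opioid system, the difference was -0.02 ± 0.124 for Pdyn, 0.15 ± 0.151 for Penk, -0.19 ± 0.235 for Pnoc, the nociceptin precursor, 0.36 ± 0.299 for the kappa receptor Oprk1 and 0.14 ± 0.208 for the nociceptin receptor Oprl1. All of these overlapped between dependent and non-dependent arrays. Of 19 other neuropeptide genes and receptors tested, 0 were higher and 2 lower at an unadjusted p under 0.05: Vip, the vasoactive intestinal peptide (-0.68 ± 0.269), and Ntsr2, a neurotensin receptor of astrocytes (-0.36 ± 0.162). These were 10.5% of the list, against 6.98% of all genes tested.

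The glucocorticoid receptor gene Nr3c1 was at 11.09, 11.08, 11.22 and 11.06 on dependent arrays and at 11.26, 10.87, 10.73 and 11.23 on non-dependent arrays (0.09 ± 0.132, adjusted p = 0.905), and the mineralocorticoid receptor Nr3c2 differed by -0.08 ± 0.141. Of 16 corticosteroid receptors and response genes, 0 were higher and 0 lower at an unadjusted p under 0.05; Fkbp5, a chaperone induced by glucocorticoids, differed by -0.09, Sgk1, an induced kinase, by -0.02 and Tsc22d3, which encodes GILZ, by 0.02. Of 280 tested targets of Nr3c1 listed by the study, 8 were higher and 4 lower, against 2.46% and 4.52% of all genes tested, and 150 (53.6%) were above 0, against 43.3%; their median was 0.0151. The study derived that list from these same samples, so it is not independent evidence. The counts moved with single arrays, as did those of all genes. Without dependent replicate 1 there were 13 higher and 15 lower, where 361 and 726 of all 8715 genes tested were. Without dependent replicate 3 there were 2 higher and 3 lower, with a median of -0.00788, where 160 and 224 of all genes were. The median was also below 0 without dependent replicate 4 (-0.0032) or non-dependent replicate 2 (-0.0127). Of 12 immediate early genes, which neurons induce within minutes of activity, 0 were higher and 0 lower, with differences between -0.14 for Ier2 and 0.37 for Fosb.

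Gabrg1, the gamma1 subunit of the GABA-A receptor, had the largest difference of all genes tested. It was at 8.48, 8.45, 7.97 and 8.9 on dependent arrays, 7.99, 6.54, 6.92 and 6.85 on non-dependent arrays and 8.65, 7.76, 6.83 and 8.8 on naive arrays. The highest non-dependent array overlapped the lowest dependent one by 0.02, and the naive arrays overlapped both groups. The difference was 1.38 ± 0.407 (2.59-fold, unadjusted p = 0.00498, adjusted p = 0.688). Gabrg1 also stands in the Nr3c1 target list. Of the other 8 GABA-A and GABA-B receptor subunits tested, Gabra2 was nearest, at 0.22 with an unadjusted p of 0.0669, and the rest lay between -0.1 for Gabbr2 and 0.13 for Gabra5. Other subunits of these receptors were not analysed here.

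Of 28 potassium channel genes, 1 was higher and 0 lower: Kcnd2, which carries A-type current (10.47 to 10.68 on dependent arrays and 10.18 to 10.46 on non-dependent arrays; 0.24 ± 0.0979). A second probe set of Kcnd2 gave 0.45. Of 15 calcium and sodium channel genes, 1 was higher and 1 lower: Cacna1d, an L-type calcium channel (0.46 ± 0.137, no overlap), and Scn3b, a sodium channel beta subunit (-0.28 ± 0.115). Of 30 genes of synaptic vesicles and exocytosis, only Cplx1, the complexin that clamps and triggers fusion, had an unadjusted p under 0.05 (-0.32 ± 0.147). Of 22 Ras and Rap regulators, Rasa1 (0.45 ± 0.123) and Sipa1l1 (0.42 ± 0.184), both GTPase-activating proteins, were higher and Rasgrp2 was lower, 17 (77.3%) were above 0, against 43.3% of all genes, and the median was 0.0527. A second probe set of Rasa1, at 8.52 and 8.51, differed by 0.01. Of all genes tested, 6.98% had an unadjusted p under 0.05 (2.46% higher and 4.52% lower). The share was 3.57% of the potassium channel, 13.3% of the calcium and sodium channel, 3.33% of the vesicle and 13.6% of the Ras and Rap genes.

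Most oxidative phosphorylation genes had lower values in dependent rats. Of 69 tested, 0 were higher and 6 lower in dependent rats at an unadjusted p under 0.05, against 2.46% and 4.52% of all genes tested. Of the 69, 9 (13%) had a difference above 0, against 43.3% of all genes tested. Their median was -0.116 as deposited, -0.119 after quantile normalization and -0.0814 after median scaling, against -0.0275, -0.00428 and 0.00676 over all genes. Cox5b, a subunit of complex IV, was at 11.59, 10.91, 11.08 and 11.39 on dependent arrays and 11.53, 11.77, 11.75 and 11.85 on non-dependent arrays (-0.48 ± 0.138). The complex I subunits Ndufb2 (-0.37 ± 0.11), Ndufs6 (-0.29 ± 0.087) and Ndufs3 (-0.4 ± 0.132) were lower, the last 2 with no overlap. All had an adjusted p of 0.688.

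A single dependent array ran the other way. The mean of the 69 genes, relative to the 12 arrays, was 0.185, -0.148, -0.164 and -0.2 on the dependent arrays, -0.106, 0.0782, -0.00481 and 0.257 on the non-dependent arrays and 0.028, 0.0636, 0.0836 and -0.0719 on the naive arrays. Dependent replicate 1 stood with the highest arrays of the region, while the other 3 were the lowest of all 12. Without dependent replicate 1 the count was 0 higher and 17 lower, the median was -0.19, and 6 genes were above 0; over all genes 4.14% were then higher and 8.33% lower. The median moved to -0.0523 without non-dependent replicate 4, the array with the highest mean, with 1 higher, 5 lower and 25 above 0. Of all 8715 genes tested, 267 were then higher and 413 lower. Without dependent replicate 2 the median was -0.069. On non-dependent replicate 4 the 3′ minus 5′ signal of Actb, a sign of RNA quality, was 7.18, against 8.32 to 8.52 on the other non-dependent arrays. Naive arrays ran between 7.37 and 8.13 and dependent arrays between 7.68 and 8.85. For Gapdh the same measure was 1.5631 on that replicate, within the non-dependent range of 1.4127 to 1.9292. On non-dependent replicate 4 the oligodendrocyte and choroid plexus lists averaged 0.428 and 0.963 relative to the 12 arrays. The choroid plexus list was higher still on dependent replicate 2, at 1.3. The list of hypothalamic and thalamic neuron markers was also highest on that array, at 0.716. The part of these measures was not tested. Cytosolic ribosomal protein genes were likewise highest on dependent replicate 1: 0 of 41 were higher and 0 lower with all arrays, 9 were above 0, and the median was -0.0674; without dependent replicate 1, 4 were lower and the median was -0.116. Leaving out dependent replicate 4 or 2 gave -0.0277 and -0.029, and leaving out non-dependent replicate 4 or 2 gave -0.0318 and -0.0396.

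**Figure D3:**
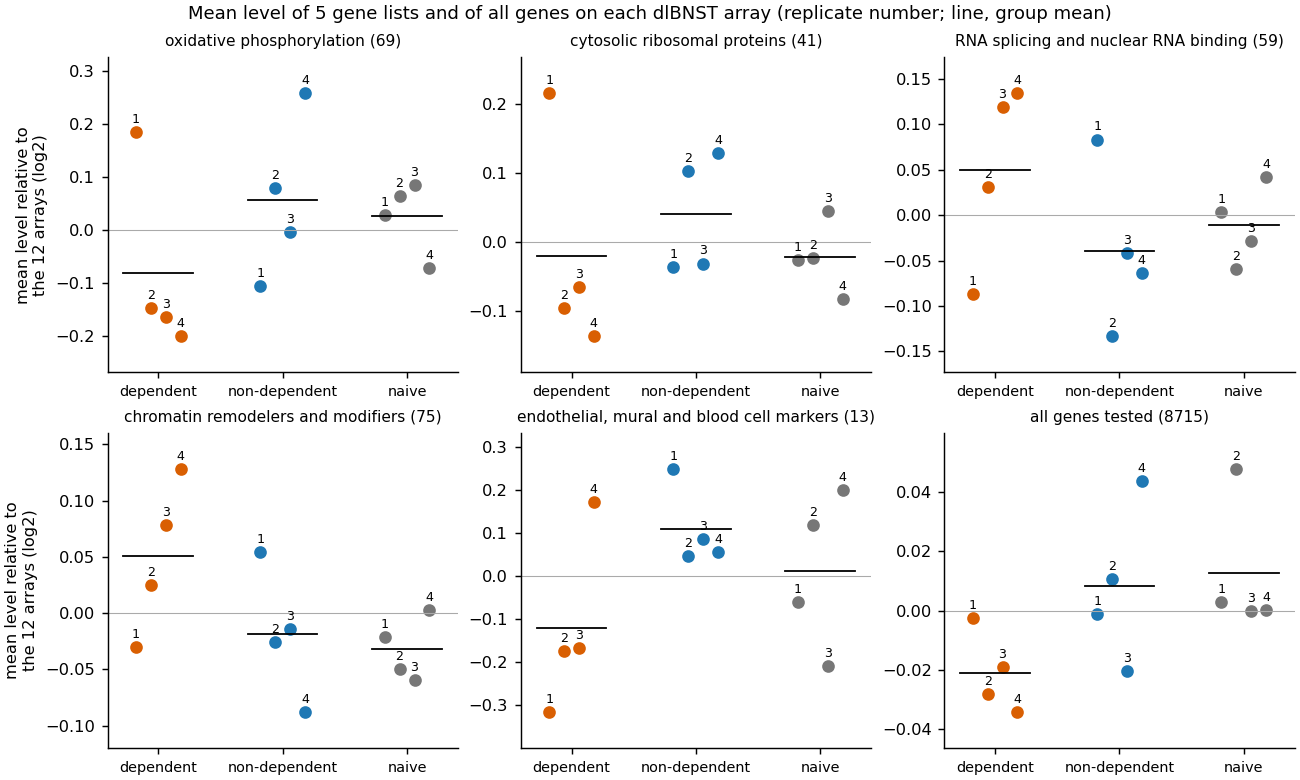
Mean level of 5 gene lists and of all genes tested on each dlBNST array, relative to the mean of the 12 arrays (vertical axis, log2; scales differ between panels), for dependent, non-dependent and naive rats; small digits are replicate numbers and black lines group means. For oxidative phosphorylation, dependent replicate 1 is at 0.185 and the other dependent arrays lie between -0.2 and -0.148.

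Most genes of RNA splicing and of chromatin had higher values in dependent rats. Of 59 splicing and nuclear RNA-binding genes, 7 were higher and 1 lower at an unadjusted p under 0.05, and 40 (67.8%) were above 0, with a median of 0.0498. Of all genes tested 2.46% were higher and 4.52% lower, and 43.3% were above 0. The higher ones included Celf1, a regulator of alternative splicing (11.72, 11.63, 12.11 and 11.88 on dependent arrays, against 11.56, 11.42, 11.28 and 11.3 on non-dependent arrays; 0.44 ± 0.128), the splicing factors Prpf38b (0.88 ± 0.285), Srsf4 (0.37 ± 0.136) and Srsf10 (0.34 ± 0.114), and Ddx17, an RNA helicase (0.48). U2af1, which recognizes the 3′ splice site, was the lower one (-0.47). Other probe sets gave smaller differences: for Celf1 a second at 11.47 and 11.42 differed by 0.05, and for Prpf38b a second at 7.41 and 7.32 differed by 0.09.

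Of 75 chromatin remodelers and modifiers, 5 were higher and 3 lower, 53 (70.7%) were above 0 and the median was 0.0413, beside the same shares of all genes. With Atrx and Ankrd11, the higher genes were Tet2, a DNA demethylase (0.49), Chd4, the remodeler of the NuRD complex (0.48), and Cbx1, a heterochromatin protein (8.33, 8.28, 8.17 and 7.98 on dependent arrays and 7.95, 7.88, 7.92 and 7.77 on non-dependent arrays; 0.31 ± 0.103). Ezh1, a histone methyltransferase (-0.33 ± 0.111), Hdac6, a largely cytoplasmic deacetylase (-0.3), and Kdm1a, a histone demethylase (-0.22), were the lower ones. Without dependent replicate 1 the counts were 12 higher and 1 lower for splicing and 8 higher and 4 lower for chromatin. Of all genes 4.14% were then higher and 8.33% lower. Without dependent replicate 3 they were 4 and 0 for splicing and 3 and 2 for chromatin. Of all 8715 genes tested, 160 were then higher and 224 lower. The median of the splicing genes was 0.008 without non-dependent replicate 2, and that of the chromatin genes was 0.00564 without dependent replicate 4, with 40 of 75 above 0, and 0.114 without dependent replicate 1. The mean of the splicing genes was -0.0866 on dependent replicate 1, and 0.0311, 0.119 and 0.134 on the other dependent arrays, against 0.0833, -0.133, -0.0421 and -0.064 on the non-dependent arrays, so the groups overlapped.

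Markers of other cells were compared beside these groups. The 13 tested markers of endothelial, mural and blood cells had the lowest median of the lists with 5 or more genes tested, -0.241, with 3 above 0, and -0.157 without non-dependent replicate 1; Slc2a1, the glucose transporter of the blood-brain barrier, differed by -0.33 ± 0.14. Summed over the 22 markers measured, dim ones included, the level was 11.03 to 11.64 on dependent arrays and 11.35 to 12.05 on non-dependent arrays. The difference was -0.386 (exact permutation p = 0.114). The 18 oligodendrocyte markers had a median of -0.128, 4 above 0 and none with an unadjusted p under 0.05, and without non-dependent replicate 4 it was 0.0615. The summed astrocyte markers were at 15.95 to 15.99 on dependent arrays and 15.91 to 15.98 on non-dependent arrays. In tissue of mixed cells, fewer cells of a type and less RNA per cell cannot be told apart. The part of these markers in the gene differences was not tested.

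The 19 tested markers of GABA and peptide neurons of the BNST had 0 higher and 0 lower, 10 above 0 and a median of 0.00724. Heat shock genes (0 higher and 0 lower of 40), ethanol and aldehyde metabolism (0 and 0 of 15), neurotrophins and their receptors (0 and 0 of 18), glutamate receptors (0 and 0 of 16) and receptors of monoamines, acetylcholine and cannabinoids (0 and 0 of 7) had no member with an unadjusted p under 0.05; the median of the last was 0.111. Of 7 tested markers of cortical and hippocampal glutamatergic neurons, Rorb was higher and Cux2 lower, 5 were above 0 and the median was 0.125, against -0.0275 for all genes. Of 48 translation initiation factors, 2 were higher, Eif5b and Eif3a (0.28 ± 0.122), and 2 lower, Eif2b4 (-0.47 ± 0.163) and Eif4a3 (-0.24 ± 0.11). Of 15 inflammatory genes, the chemokine Cxcl12 was higher (0.48 ± 0.188) and Icoslg lower. Of 10 microglia markers, Fcer1g, an Fc receptor subunit, was lower (-0.57 ± 0.247). Of all genes tested, 6.98% had an unadjusted p under 0.05. The share was 28.6% of the 7 cortical and hippocampal markers, 8.33% of the initiation factors, 13.3% of the inflammatory genes and 10% of the microglia markers.

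**Figure D4:**
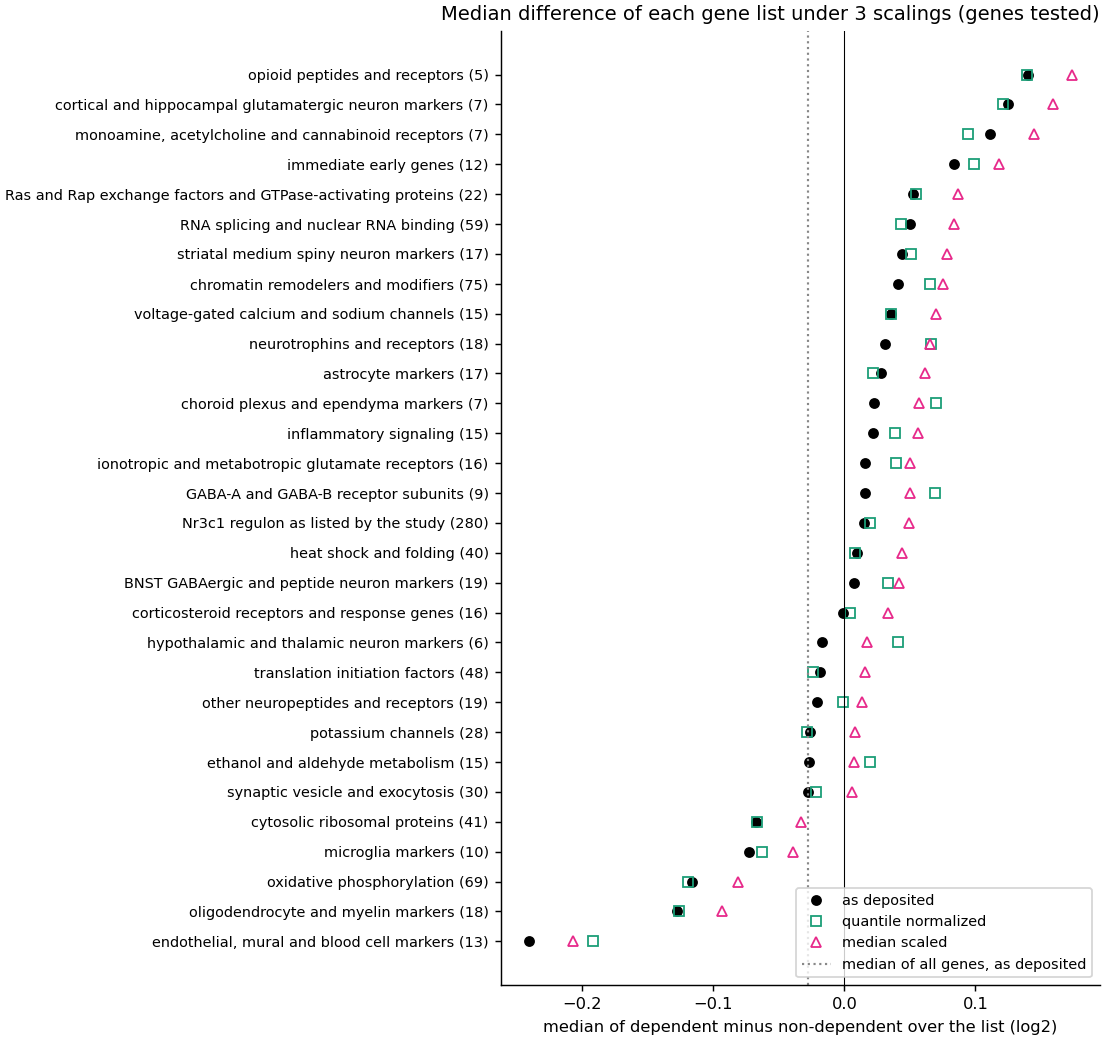
Median difference between dependent and non-dependent rats (horizontal axis, log2) of each gene list with 5 or more genes tested (number in brackets), as deposited (black), after quantile normalization (squares) and after median scaling (triangles); the dotted line is the median of all genes, -0.0275. Endothelial, oligodendrocyte and oxidative phosphorylation genes are lowest at every scaling.

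The leading dlBNST genes were then followed into the other 7 regions. By the study's text these regions come from the same 4 rats of each group, so like signs there are not a replication in other animals. In 4 of these regions 1 array stood apart from the rest (ventral BNST (vBNST) dependent replicate 1, and non-dependent arrays of the central amygdala (CeA), basolateral amygdala (BLA) and VTA), and values without it are given. In the vBNST, 9 of the 12 higher genes were also above 0 and 8 of the 12 lower genes below 0, where 46.7% and 53.3% of all genes had those signs. With every array the counts were 5 and 5. In the CeA they were 11 and 10, against 43.1% and 56.9% of all genes, and with every array 10 and 7, where a single array put 83.2% of all genes above 0. In the shell of the nucleus accumbens (NAcSh) 3 of the higher and 7 of the lower genes had the same sign, against 41.9% and 58.1% of all genes, and in the medial prefrontal cortex (mPFC) 7 and 8, against 51.2% and 48.8%. In the core of the nucleus accumbens (NAcC) it was 8 of 12 and 10 of 11, against 46.7% and 53.3%. In the BLA it was 10 and 9 without the array apart, against 54% and 46%, and 10 and 10 with every array, against 59.2% and 40.8%. In the VTA it was 6 and 8 without the array apart, against 46.3% and 53.7%, and 8 and 4 with every array, against 53.4% and 46.6%.

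Some leading genes had like values elsewhere. Rorb was higher in dependent rats in 6 of the 7 other regions. Without the array apart it was at 1.01 in the vBNST, 0.74 in the BLA, 0.67 in the VTA and 0.62 in the CeA. With every array these were 0.77, 0.76, 1.18 and 0.72. It was at 0.49 in the NAcSh, 0.44 in the NAcC and -0.09 in the mPFC. Arhgap5 differed by 0.53 in the vBNST without the array apart and by 0.49 ± 0.13 with it (unadjusted p = 0.00293, adjusted p = 0.663). Rasgrp2 was at -0.9 ± 0.33 in the NAcC (unadjusted p = 0.0169, adjusted p = 0.799) and -0.7 in the NAcSh. In the BLA it was at -0.59 ± 0.229 (limma, unadjusted p = 0.0235, adjusted p = 0.523) and at -0.43 without the array apart. In the CeA it was at -0.15 with every array and -0.32 without the array apart. It was near 0 in the mPFC (-0.09) and, without the array apart, in the vBNST (0.05) and VTA (-0.04). With every array the vBNST value was 0.36 and the VTA value 0.05. In the VTA without the array apart, Atrx was at 0.91 and Srek1 at 0.55. With every array Atrx was at 1.82 ± 0.682 (limma, unadjusted p = 0.0211, adjusted p = 0.311). Srek1 was then at 0.66 ± 0.166 (limma, unadjusted p = 0.00187, adjusted p = 0.237). Icoslg, by contrast, ran between -0.27 in the vBNST and 0.19 in the VTA without the arrays apart, and between -0.23 in the CeA and 0.42 in the VTA with every array. With every array, no difference of these 24 genes passed the adjusted threshold in any other region.

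**Figure D5:**
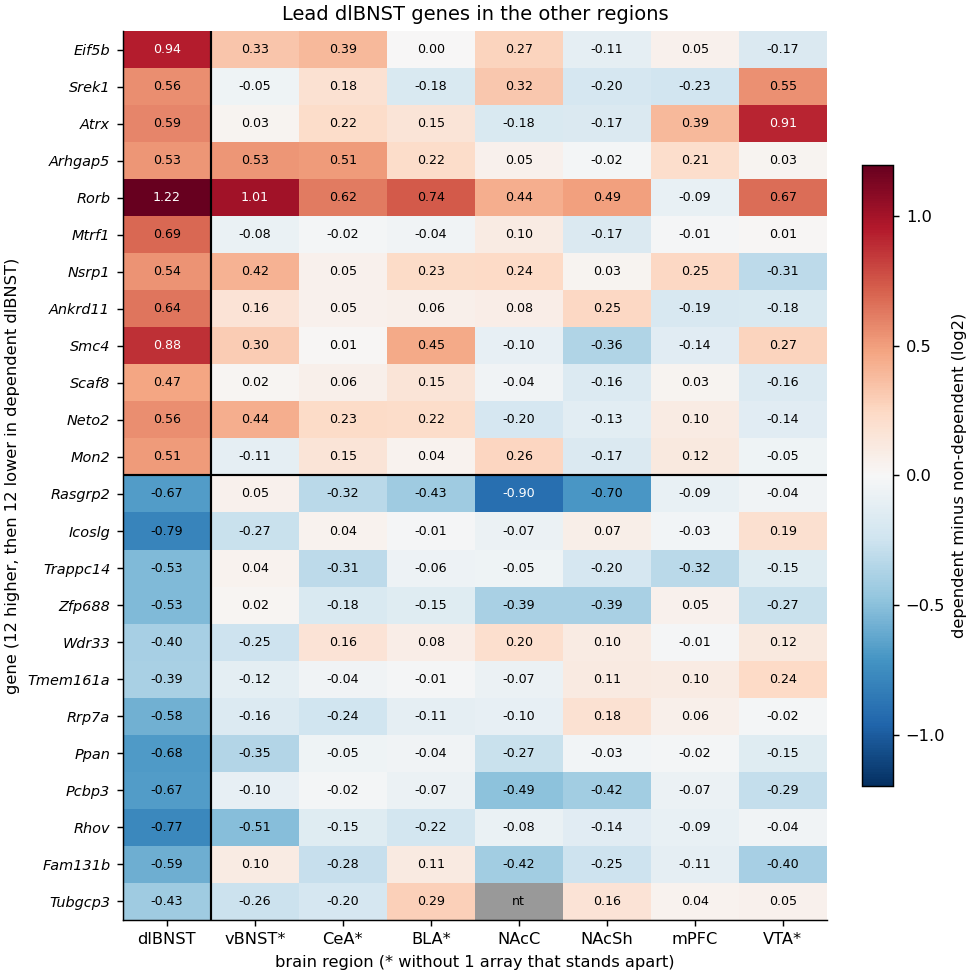
Difference between dependent and non-dependent rats (colour and printed value, log2) of the 24 leading dlBNST genes (rows) in 8 brain regions (columns); asterisks mark regions shown without 1 array that stood apart, nt is not tested. Rorb is above 0 in every region but the mPFC.

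The difference of the dlBNST response from that of its nearest relatives was tested directly. Against the vBNST, 0 of 8566 genes (0%) had an adjusted p under 0.05 for the interaction (lowest 0.592, with 466 genes, 5.44%, at an unadjusted p under 0.05). Against the CeA it was 0 of 8458 (0%; lowest 0.506, with 119 genes, 1.41%). Without the array apart, vBNST dependent replicate 1 or CeA non-dependent replicate 2, 241 and 219 genes had an unadjusted p under 0.05, and 0 passed in either. Of the leading genes, Rasgrp2 differed by -0.67 in the dlBNST and 0.36 in the vBNST, a difference of -1.03 ± 0.32 (adjusted p = 0.592), which was -0.72 without the vBNST array apart. Srek1 and Mtrf1 were 0.95 ± 0.314 and 1.12 ± 0.379 higher in their dlBNST response than in their vBNST response (both adjusted p = 0.592). Without the vBNST array apart these were 0.62 and 0.77. Arhgap5 (0.04 ± 0.165) and Nsrp1 (-0.01 ± 0.272) differed little. The leading genes were chosen by their dlBNST p, so the sizes of these differences are descriptions. Outside the leading genes, the lowest interaction p against the vBNST was that of Sec61a2, a translocon subunit (-0.37 in the dlBNST and 0.47 in the vBNST), and against the CeA that of Cdh12, a cadherin (-0.31 in the dlBNST and 1.17 in the CeA). None of these passed, so no gene was shown to respond in the dlBNST differently from either region.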

How the data were processed

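Total RNA of microdissected tissue (30 or 50 ng by region) was amplified, labeled with biotin and hybridized to Affymetrix rat genome arrays. The deposited values are log2 intensities of 31099 probe sets that the authors made with GCRMA 2.36.0 in R 3.03, per the submitters' processing notes; all 96 arrays were normalized by the authors, which corrects background with probe sequence, so dim probe sets are compressed toward a floor. Probe sets naming 1 gene (20832; 436 named several and 9831 none) gave 14218 genes, of which 14168 matched RefSeq symbols. Each gene was represented by its brightest probe set, averaged across the 96 arrays, and 8715 genes with a mean above 4 over the 12 dlBNST arrays were tested.

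Dependent minus non-dependent was fitted with limma 3.58.1 in R 4.3.3 over the 12 arrays with 3 group means, with Benjamini-Hochberg adjustment over all genes at a threshold of 0.05. Interactions with the vBNST and the CeA were fitted over 24 arrays, with the arrays of a rat not paired between regions. Array measures were compared with a two-sided exact permutation test of 70 arrangements. The number of arrays limits the precision. The labels do not say which arrays share a rat, and p-values measure the spread between arrays. The test was checked on simulated data. The 33 gene lists and the named genes (the 12 with the lowest p per direction, up to 4 members of each list with an unadjusted p under 0.05, the CRF, NPY and opioid members, Nr3c1, Nr3c2, and up to 5 per direction with the lowest interaction p) were chosen with earlier results of these data known; Ddx17, U2af1, Tet2, Chd4, Hdac6, Kdm1a, Gabra2, Gabbr2, Gabra5, Fkbp5, Sgk1, Tsc22d3, Ier2 and Fosb were added after their values were seen. Lists were described by counts and medians. Alternatives were quantile and median scaling, other filters, other treatments of probe sets, only the 8 arrays, the methods' t-test, an intensity trend, array weights, a replicate block and leaving out each array. Figures were drawn with matplotlib 3.10.9.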

Additional observations from a re-analysis of the deposited data

Results flagged for a closer look

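Of 123 groups of 4 arrays screened (24 leading genes and 17 array measures in 3 groups), 4 held an array whose distance from the other 3 exceeded Dixon's critical value, and chance gives about 1 in 20. For Ankrd11, dependent replicate 1 was at 8.03 and the other dependent arrays at 8.44 to 8.51. For Tmem161a, dependent replicate 3 was at 6.18 and the others at 6.45 to 6.5. The 3′ minus 5′ level of the Actb control probe sets was 7.18 on non-dependent replicate 4 and 8.32 to 8.52 on the other non-dependent arrays. The summed endothelial, mural and blood cell markers were at 11.64 on dependent replicate 4 and at 11.03 to 11.13 on the other dependent arrays.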

How the results depend on the processing

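The count of genes past the adjusted threshold was 0 under each alternative run, with the lowest adjusted p between 0.101, for every probe set on its own, and 0.975, without dependent replicate 3. The leading genes kept their sign in all 542 of their alternatives, and none passed in any. They were chosen by their p on these same arrays, so the kept signs are not a test. Many of the alternatives, such as the filters, the t-test or leaving out a naive array, cannot change a difference. At an unadjusted p under 0.05, the higher genes numbered 214 and ran between 160 and 361 when an array was left out; the lower genes numbered 394 and ran between 224 and 726. Dependent replicate 1 gave the highest counts when left out (361 higher, 726 lower) and dependent replicate 3 the lowest (160 and 224). Testing every probe set gave 406 higher, median scaling 261 lower, no filter on dim genes 593 lower and the methods' t-test 256 lower (with 147 higher and 0 after Benjamini-Hochberg). The t-test uses fewer arrays, and the absence of a filter tests more genes; the cause of the other shifts was not tested. Without that filter 12 gene lists had a median above 0, against 20 of 33 in the main setting, 23 after quantile normalization, 27 after median scaling and 15 to 21 when an array was left out.

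Of 66 named genes, 7 changed sign in at least 1 setting, all with differences near their error: Crh (-0.1 without non-dependent replicate 3; -0.1 to 0.7 over the arrays left out), Crhbp (-0.2 to 0.02), Npy (-0.38 to 0.02), Npy5r (-0.27 to 0.02), Oprl1 (-0.01 to 0.3), Nr3c1 (-0.01 to 0.17) and Pdyn (-0.08 to 0.07, and 0.01 after median scaling). Medians moved by more than the spread between arrays in 17 of 528 list settings. The interactions with the vBNST and the CeA stayed at 0 genes in each setting; without the array apart the lowest adjusted p was 0.999 and 1. Same-numbered dependent and non-dependent arrays, which are different rats, deviated together by r of -0.245, 0.183, 0.138 and 0.0311. The numbers were not used in the main fits. These r values cannot show whether a number follows a rat across regions, and that was not tested. The replicate block gave 0 genes (lowest adjusted p 0.731), 211 higher and 384 lower before adjustment, and 0 genes for both interactions. Genes below a mean of 4 were too dim to test (5503).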

Other observations

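Probe sets that name no gene or several were tested in the same way, and 0 of 4009 passed the adjusted threshold (limma, lowest adjusted p 0.416), with 224 at an unadjusted p under 0.05.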
